A study of Mus musculus with 8 samples.

Results

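The metabolic nuclear receptors of liver described here are 10 genes, Nr1i2, Nr1i3, Nr1h3, Nr3c1, Ppara, Ppard, Pparg, Rxra, Rarb and Thrb. They were taken by gene symbol from the 47719 genes of a deposited table of mouse liver mRNA, and each had 1 entry. All 10 passed the filter used for testing, 1 FPKM or more in 2 or more libraries, as did 12340 genes in all. FPKM is a fragment number scaled by transcript length and by library size, so levels can be set beside each other between genes.

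The 8 libraries came from liver of wild type C57BL/6 mice and fall into 3 groups. They comprise 2 libraries from day 14 after extended hepatectomy, which removes most of the liver, 4 libraries from day 2 after it, and 2 libraries from normal control mice aged 10 weeks. By the design text the day 14 mice had the treatment written eLO, and the day 2 mice had either eLO or the control treatment written EMC; the study's title names encapsulated human hepatocyte organoids. No label ties a day 2 library to either treatment, so day 2 was kept as 1 group, and surgery, treatment and time cannot be told apart. The ages of the operated mice are not given in the labels. The title of day 2 replicate 1 reads d1 while its age label reads day 2, and the title of day 2 replicate 3 has TVR in it, a term left unexplained. The labels do not say whether each library is a mouse of its own, and the p-values reflect only the variation among the libraries at hand, which may be technical. In bulk liver, fewer cells of a type and less RNA per cell cannot be told apart.

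Nuclear receptors are transcription factors that bind DNA directly and are switched by small fat-soluble molecules such as steroids, thyroid hormone, vitamin A derivatives, oxysterols, fatty acids and drugs. Most of the receptors here bind DNA as a pair with a retinoid X receptor, of which Rxra is the main form in hepatocytes; the glucocorticoid receptor Nr3c1 binds DNA without it. In liver they set drug clearance (Nr1i2, also called PXR, and Nr1i3, also called CAR), cholesterol export and fat synthesis (Nr1h3, LXR alpha), fat oxidation in fasting (Ppara), fat storage (Pparg), the response to corticosteroids (Nr3c1), to thyroid hormone (Thrb) and to retinoic acid (Rarb).

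Promoter windows of 300 bases, running from 250 bases before to 50 after an annotated start, were available from RefSeq (GRCm38.p6) for 9 of the 10 receptors; Nr3c1 had none. Of these, 4 are shown. Nr1i2, Nr1i3 and Thrb were taken because they had a window and were called against control liver. Rarb was taken because it holds a spelling of the repeat motif of its own receptor class. Capitals mark every match, on either strand, to 4 motifs: AGGTCA, the hexamer bound by many nuclear receptors; CACGTG, an E-box; GGGCGG, a GC box; and GTTCACNNNNNGTTCAC, a direct repeat in the form of a retinoic acid response element. The windows lie at chr16:38294775-38295074 on the minus strand (Nr1i2), chr1:171213720-171214019 on the plus strand (Nr1i3), chr14:17660710-17661009 on the plus strand (Thrb, the first of 2 windows) and chr14:16575427-16575726 on the minus strand (Rarb).
Nr1i2: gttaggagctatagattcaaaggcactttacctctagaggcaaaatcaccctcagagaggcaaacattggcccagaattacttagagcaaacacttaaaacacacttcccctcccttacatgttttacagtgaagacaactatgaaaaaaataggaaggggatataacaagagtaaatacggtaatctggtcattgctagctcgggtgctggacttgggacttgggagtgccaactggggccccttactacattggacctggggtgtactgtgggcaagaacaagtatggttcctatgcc
Nr1i3: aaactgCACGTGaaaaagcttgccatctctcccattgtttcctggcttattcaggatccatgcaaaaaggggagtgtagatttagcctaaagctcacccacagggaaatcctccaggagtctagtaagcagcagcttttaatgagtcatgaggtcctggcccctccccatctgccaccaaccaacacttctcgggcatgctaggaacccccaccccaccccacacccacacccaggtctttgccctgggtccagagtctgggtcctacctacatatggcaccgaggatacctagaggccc
Thrb: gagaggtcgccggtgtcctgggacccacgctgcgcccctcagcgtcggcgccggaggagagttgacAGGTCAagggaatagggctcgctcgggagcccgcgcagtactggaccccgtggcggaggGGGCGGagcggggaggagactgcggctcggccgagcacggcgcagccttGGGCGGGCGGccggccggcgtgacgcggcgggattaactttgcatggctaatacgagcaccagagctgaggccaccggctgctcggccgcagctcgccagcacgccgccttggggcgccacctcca
Rarb: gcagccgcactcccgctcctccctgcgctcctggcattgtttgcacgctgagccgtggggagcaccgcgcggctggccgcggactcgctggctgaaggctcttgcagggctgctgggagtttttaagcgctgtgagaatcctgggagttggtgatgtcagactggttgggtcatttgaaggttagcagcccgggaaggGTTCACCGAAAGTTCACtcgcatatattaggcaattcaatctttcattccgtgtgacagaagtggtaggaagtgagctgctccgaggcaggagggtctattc
The Nr1i2 window held none of the 4 motifs, and the Nr1i3 window held 1 E-box, 244 bases before the start. The Thrb window held 1 AGGTCA and 3 GC boxes, the last pair of them overlapping, which is why 1 run of 10 capitals appears there. The Rarb window held the direct repeat 52 bases before the start. That spelling, with any bases between the repeats, was in 2 of the 32851 windows of that length (0.00609%). Other spellings of a retinoic acid response element were not searched, and Rarb was shown because it matched. The share therefore cannot tell how rare such elements are. Among the 32851 windows AGGTCA was in 16.3%, CACGTG in 7.15% and GGGCGG in 35.7%, so a match is a description of the letters. Pparg, called between day 14 and day 2, has 3 windows, not printed, 2 of which held AGGTCA. The printed windows also differ in base composition, with a GC content of 45.3% for Nr1i2, 54.0% for Nr1i3, 57.7% for Rarb and 72.7% for Thrb, against a median of 52.7% over all windows.

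The receptors moved in different directions and by different amounts. At day 14 Nr1i3 was the receptor called higher, both than control liver and than day 2, by 4.24-fold and 2.87-fold in mean FPKM. Pparg was 2.48-fold higher at day 14 than at day 2. At day 2 Nr1i2 was 1.78-fold higher than in control liver, while Nr3c1 and Thrb fell to 0.295 and 0.399 of the control mean. Calls were made by limma on log2(FPKM + 1), on which fold changes of low genes are understated, at a Benjamini-Hochberg adjusted p under 0.05 over all genes tested.

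Against these, the background over all genes was sizeable. At day 14 against control, 1 of 10 receptors was called (3 at an unadjusted p under 0.05), beside 9.79% of all genes tested (5.21% higher and 4.58% lower). At day 14 against day 2, 2 of 10 were called, both higher (4 at an unadjusted p under 0.05), beside 16.1% of all genes (9.09% higher and 7.03% lower). At day 2 against control, 3 of 10 were called, 1 higher and 2 lower (4 at an unadjusted p under 0.05), beside 21.2% of all genes (9.72% higher and 11.5% lower). The median log2 change of the 10 receptors was -0.07, 0.44 and -0.46 in the order of these comparisons, where the median of all genes tested was -0.00, -0.03 and 0.05. With 10 receptors these counts are near the background share. The comparisons share libraries and are not independent of each other.

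**Figure D1:**
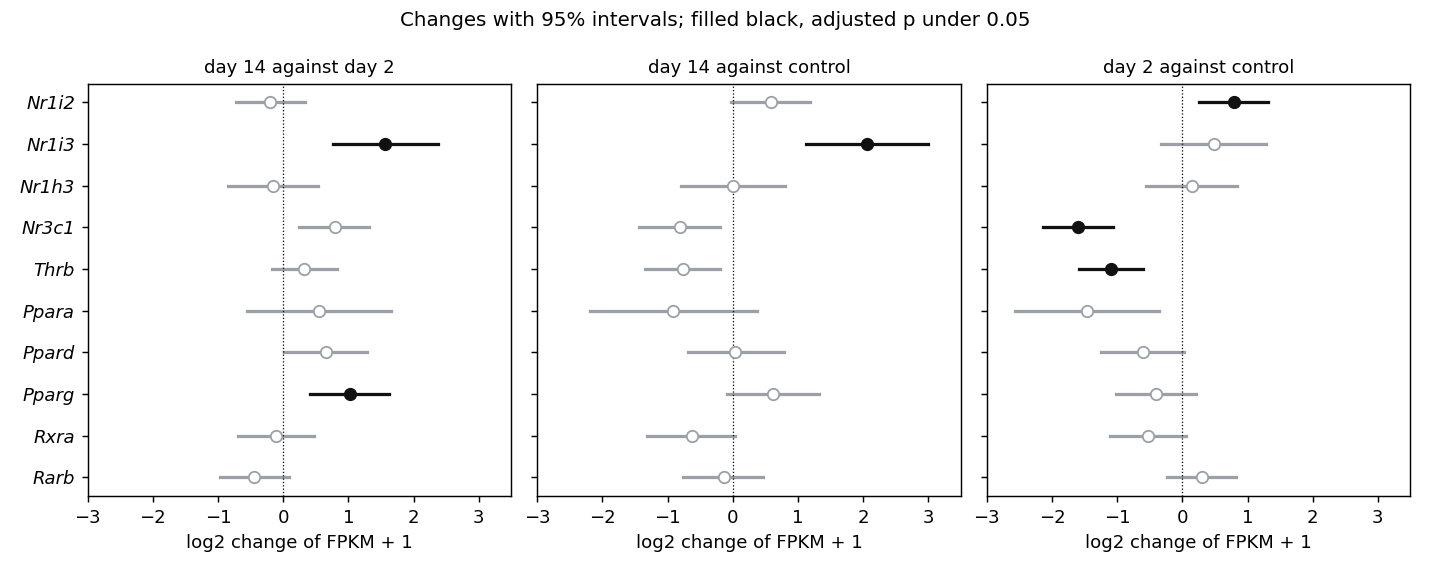
Log2 change in log2(FPKM + 1) of each receptor with its 95% confidence interval, in day 14 against day 2, day 14 against control and day 2 against control. Filled black points have an adjusted p under 0.05 (limma). Nr1i3 lies at 1.57 at day 14 against day 2 and at 2.06 at day 14 against control. Nr3c1 lies at -1.60 and Thrb at -1.09 at day 2 against control.

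Counts of receptors whose libraries do not overlap between groups have to be read against a high background, since groups of 2 and 4 separate often. Day 14 and control libraries did not overlap for 7 of 10 receptors (3 higher, 4 lower), beside 70.9% of all genes (35.3% higher and 35.7% lower). Day 14 and day 2 libraries did not overlap for 5 of 10 (4 higher, 1 lower), beside 41.6% of all genes (21.2% higher and 20.4% lower). Day 2 and control libraries did not overlap for 7 of 10 (1 higher, 6 lower), beside 51.5% of all genes, of which 26.1% were apart with day 2 higher and 25.4% with day 2 lower.

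The receptors spanned a wide range of levels. In control liver the mean FPKM ran from 93.3 for Rxra through 59.1 for Nr1i3, 47.9 for Nr1h3, 27.5 for Ppara, 21.1 for Nr1i2, 16.7 for Nr3c1, 7.08 for Thrb, 4.36 for Ppard and 3.65 for Pparg to 1.25 for Rarb. Only the neighbours Ppard and Pparg overlapped in that order. At day 14 the order by mean FPKM was Nr1i3 at 251, Rxra at 59.8, Nr1h3 at 48.0, Nr1i2 at 32.2, Ppara at 14.2, Nr3c1 at 9.09, Pparg at 6.35, Ppard at 4.66, Thrb at 3.76 and Rarb at 1.02. Pparg overlapped Ppard, and Ppard overlapped Thrb; the other neighbours were apart. At day 2 Nr1i3 (87.2), Rxra (64.9), Nr1h3 (55.0) and Nr1i2 (37.6) overlapped from neighbour to neighbour, as did Ppara (10.7), Nr3c1 (4.93), Thrb (2.82), Pparg (2.56) and Ppard (2.45). Between these sets, and between Ppard and Rarb (1.73), the day 2 libraries were apart.

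**Figure D2:**
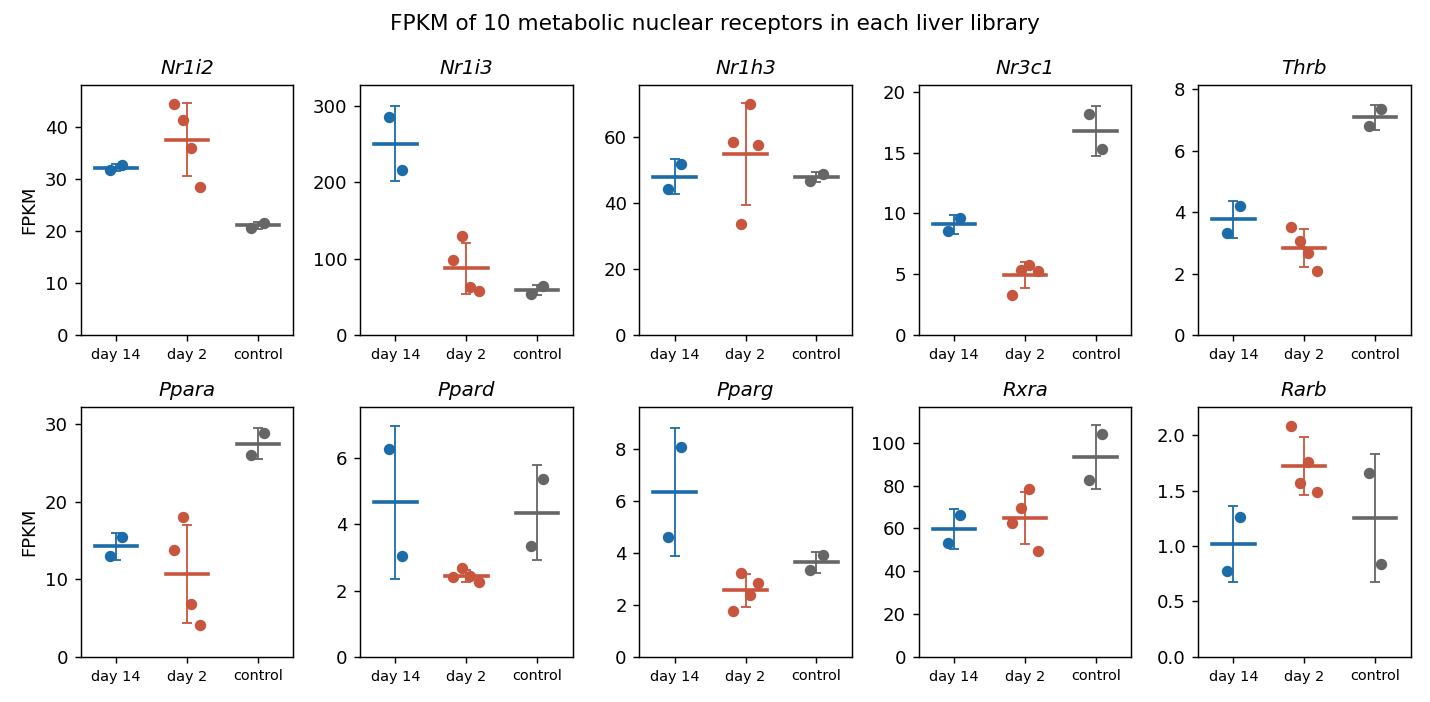
FPKM of each receptor in each library (dots), with the group mean (line) and SD (bar), for day 14 (n = 2), day 2 (n = 4) and control (n = 2); each panel has its own linear axis starting at 0. Nr1i3 reached 285 and 216 FPKM at day 14, above every other library, and Nr3c1 was lower in all 4 day 2 libraries than in the others.

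Nr1i3 encodes CAR, which drives cytochrome P450 and conjugation genes in response to drugs and bilirubin. It had 285 and 216 FPKM in the day 14 libraries, 98.4, 129, 63.3 and 58.2 FPKM in the day 2 libraries, and 54.2 and 64.1 FPKM in the control libraries. Both day 14 libraries stood above all others, and the day 2 and control libraries overlapped. At day 14 the log2 change was 2.06 ± 0.41 (SE; 95% interval 1.12 to 2.99) against control, with an adjusted p of 0.0305 by limma, and 1.57 ± 0.35 (0.77 to 2.38) against day 2, with an adjusted p of 0.0232. At day 2 against control it was 0.48 ± 0.35, with an adjusted p of 0.344 by limma. The call against control was lost without day 14 replicate 1 (1.86, adjusted p = 0.175), day 14 replicate 2 (2.25, 0.0524), control replicate 1 (1.94, 0.2) or control replicate 2 (2.18, 0.231). The call against day 2 was lost without day 14 replicate 1 (adjusted p = 0.201), day 14 replicate 2 (0.0572) or either control library (0.0509 each), and in a limma fit of only the day 14 and day 2 libraries (0.0519).

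Nr1i3 lies on chromosome 1 from 171213970 to 171220701 on the plus strand (GRCm38, GENCODE M21), and 74.85% of its 4414 exonic bases overlap exons of Tomm40l on the minus strand. Whether fragments were counted by strand is not stated, so reads of this overlap cannot be told apart. Tomm40l, which encodes a protein of the outer mitochondrial membrane import pore, had 9.72 and 6.81 FPKM at day 14, 12.5, 4.12, 16 and 10.8 FPKM at day 2, and 10.4 and 10.9 FPKM in control liver. Its level was well under that of Nr1i3 in every library, and it was not called in any comparison (adjusted p of 0.699 to 0.887 by limma). Both genes' values come from the same assignment of reads, so they do not show which gene the shared reads came from.

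Nr1i2 encodes PXR, the sensor for drugs and bile acids that controls Cyp3a genes, and lies on chromosome 16 from 38248323 to 38294824 on the minus strand. It had 31.8 and 32.7 FPKM at day 14, 44.5, 41.5, 36.1 and 28.5 FPKM at day 2, and 20.7 and 21.6 FPKM in control liver. Every library of an operated liver was above both control libraries, and the day 14 libraries lay within the day 2 range. Day 2 was higher than control by 0.79 ± 0.23 on the log2 scale (95% interval 0.26 to 1.31), with an adjusted p of 0.0441 by limma. At day 14 the log2 change was 0.58 ± 0.26 against control (adjusted p = 0.182) and -0.20 ± 0.23 against day 2 (0.563), both by limma. The day 2 call stands near the threshold: of the 8 fits that each left out 1 library, only the one without day 2 replicate 4 kept it, and the log2 change stayed between 0.70 and 0.91. It was also lost with no filter on low values (adjusted p = 0.0514), with quantile scaling (0.0579) and in a limma fit of only the day 2 and control libraries (0.0559).

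PXR and CAR targets, of which 24 of 25 listed genes were tested, moved in both directions. The median log2 change of the list was 0.11 at day 14 against control, 0.58 at day 14 against day 2 and -0.92 at day 2 against control. As background for this and the later lists, limma called 9.79% of all genes tested at day 14 against control. The shares were 16.1% at day 14 against day 2 and 21.2% at day 2 against control. Where Nr1i3 was called higher, at day 14 against control, limma called none of the 24 (8 at an unadjusted p under 0.05, and 7 called in a fit of only those 2 groups). Gstm1, a glutathione transferase and the most abundant of them, had 4136 and 2545 FPKM at day 14, 704 to 2317 FPKM at day 2, and 806 and 763 FPKM in control liver (log2 change at day 14 against control 2.05 ± 0.56, adjusted p = 0.0564 by limma). Cyp2b10, the standard marker of CAR activity in mouse, had 0.382 and 1.92 FPKM at day 14, 0.356, 0.21, 14.6 and 3.35 FPKM at day 2, and 2.15 and 2.85 FPKM in control liver. It was not called in any comparison (adjusted p of 0.632 to 0.949 by limma).

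At day 2 against control, 4 PXR and CAR targets were higher, namely Gsta1, Por, Gadd45b and Abcb1a, and 4 were lower, namely Cyp2c37, Cyp2c50, Cyp2c54 and Ces2a. Abcb1a reached 1 FPKM only in the day 2 libraries, so it passed the filter only through the group where it was high. Gsta1, another glutathione transferase, had 113, 60.3, 161 and 51.8 FPKM at day 2, against 1.62 and 4.21 FPKM in control liver, a log2 change of 4.57 ± 0.49 (adjusted p = 0.00219, limma). Cyp2c54, a P450, had 5.17, 3.34, 47.0 and 19.2 FPKM at day 2, against 198 and 211 FPKM in control liver (-4.02 ± 0.85, adjusted p = 0.0163, limma). Between day 14 and day 2, 6 were higher and 1, Gsta1, lower at day 14. Cyp2c54 was higher by 3.98 ± 0.85, with 192 and 208 FPKM at day 14 (adjusted p = 0.0207, limma), and Cyp2a5, a coumarin hydroxylase, by 3.74 ± 0.89 (adjusted p = 0.0289, limma). Cyp3a11, the standard PXR target, had 731 and 1159 FPKM at day 14, 89.8 to 1020 FPKM at day 2, and 1043 and 1119 FPKM in control liver, and was not called (adjusted p of 0.238 to 0.909 by limma). Without either control library the day 2 count dropped to 1. The count at day 14 against day 2 was 0 without day 14 replicate 1, 2 without day 14 replicate 2 and 12 without day 2 replicate 3.

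Nr3c1 encodes the glucocorticoid receptor, which carries the response to corticosterone, and lies on chromosome 18 from 39410545 to 39519421 on the minus strand. It had 8.53 and 9.66 FPKM at day 14, 3.33, 5.36, 5.73 and 5.29 FPKM at day 2, and 18.2 and 15.3 FPKM in control liver. The 3 groups did not overlap, with day 2 lowest, day 14 between and control highest, and day 2 replicate 1 lay below the other day 2 libraries. Day 2 fell by 1.60 ± 0.23 on the log2 scale against control (95% interval -2.13 to -1.06), with an adjusted p of 0.00543 by limma. Day 14 differed from control by -0.81 ± 0.27 (-1.43 to -0.19, adjusted p = 0.0905) and from day 2 by 0.79 ± 0.23 (adjusted p = 0.0549), both short of the limma threshold. The day 2 call was lost without control replicate 1 (-1.48, adjusted p = 0.086) or control replicate 2 (-1.71, 0.0675). It was kept without each of the other 6 libraries and under each of 8 other settings.

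Glucocorticoid receptor targets, all 21 of which were tested, went both ways at day 2: 5 were higher (Lcn2, Mt1, Mt2, Fkbp5 and Cebpd) and 5 lower (Hsd11b1, Tdo2, Tsc22d3, Klf9 and G6pc), with a list median of 0.25. Over all genes tested, 9.72% were called higher and 11.5% lower. Mt2, a metallothionein, had 5368, 8891, 6151 and 3488 FPKM at day 2, against 5.09 and 91.7 FPKM in control liver (7.90 ± 0.95, adjusted p = 0.00311, limma). Lcn2, an iron-siderophore binding protein of the acute phase, had 1854 to 5936 FPKM at day 2, against 16.5 and 33.0 FPKM in control liver (7.31 ± 0.71, adjusted p = 0.00174, limma). Mt2 and Lcn2 are also known to respond to inflammatory signals and metals, so they are not specific to this receptor. The classical targets split: Fkbp5, a chaperone partner of the receptor, rose by 2.57 ± 0.33 (adjusted p = 0.0034), while Tsc22d3, also called GILZ, fell by 1.83 ± 0.45 (adjusted p = 0.0269), both by limma. Hsd11b1, the enzyme that regenerates active corticosterone, had 81.0, 122, 89.6 and 79.7 FPKM at day 2, against 355 and 363 FPKM in control liver, and stood at 356 and 390 FPKM at day 14.

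Compared with control liver, at day 14 3 glucocorticoid receptor targets were higher (Mt1, Mt2 and Cebpd) and 2 lower (Igfbp1 and Klf9), and the list median was 0.07. Igfbp1, an insulin-like growth factor binding protein that insulin represses, had 0.888 and 4.49 FPKM at day 14, 552, 1940, 283 and 287 FPKM at day 2, and 85.4 and 222 FPKM in control liver. Its log2 change at day 14 was -5.43 ± 0.96 against control (adjusted p = 0.0263) and -7.40 ± 0.83 against day 2 (adjusted p = 0.0038), both by limma. Mt2 at day 14 had 433 and 957 FPKM (4.76 ± 1.09 against control, adjusted p = 0.0379, limma). Set against day 2, the list had at day 14 3 higher and 4 lower calls and a median of -0.29, with Lcn2 among the lower ones (-4.87 ± 0.71, adjusted p = 0.0071, limma). This list's day 2 count of 10 dropped to 4 without either control library. The count of 5 at day 14 against control was 0 without either control library or day 14 replicate 1, and 2 without day 14 replicate 2 or day 2 replicate 1, and the count of 7 against day 2 was 0 without day 14 replicate 1.

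Thrb encodes thyroid hormone receptor beta, the main form in hepatocytes, and lies on chromosome 14 from 17660261 to 18038090 on the plus strand. It had 3.33 and 4.19 FPKM at day 14, 3.52, 3.05, 2.66 and 2.07 FPKM at day 2, and 6.80 and 7.36 FPKM in control liver. All 6 libraries of operated livers were below both control libraries, and days 14 and 2 overlapped. Day 2 fell by 1.09 ± 0.22 on the log2 scale against control (95% interval -1.59 to -0.60), with an adjusted p of 0.013 by limma. At day 14 the log2 change was -0.77 ± 0.25 against control (adjusted p = 0.0844) and 0.32 ± 0.22 against day 2 (0.321), both by limma. The day 2 call was lost without control replicate 1 (-1.14, adjusted p = 0.117) or control replicate 2 (-1.04, 0.142), and kept without each of the other 6 libraries and under each of 8 other settings.

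Of 14 genes of thyroid hormone targets and handling, 12 were tested, and at day 2 against control 5 were lower and none higher, with a list median of -1.06. Over all genes tested, 11.5% were called lower and 9.72% higher. Dio1, Slc16a10, Me1 and Klf9 were among the 5 lower genes of the list. Dio1, the deiodinase that converts thyroxine to its active form and is itself induced by the hormone, had 69.0 and 117 FPKM at day 14, 16.5, 10.3, 17.3 and 14.9 FPKM at day 2, and 135 and 131 FPKM in control liver. Its log2 change was -3.11 ± 0.29 at day 2 against control (adjusted p = 0.0017) and 2.55 ± 0.29 at day 14 against day 2 (adjusted p = 0.0038), by limma, and both calls were kept without each of the 8 libraries. Slc16a10, an aromatic amino acid and thyroid hormone transporter, was lower by -1.79 ± 0.34 on the log2 scale at day 2 against control (adjusted p = 0.0116, limma).

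In the thyroid list, Klf9 and Gpd2 were lower and none higher at day 14 against control, with a median of -0.71. Klf9, a transcription factor induced by thyroid hormone and by glucocorticoid, had 3.33 and 4.22 FPKM at day 14, 7.66, 7.84, 9.12 and 4.4 FPKM at day 2, and 34.3 and 26.1 FPKM in control liver (day 14 against control -2.70 ± 0.33, adjusted p = 0.0143, limma). Gpd2, the mitochondrial glycerol phosphate dehydrogenase, had 1.97 and 1.49 FPKM at day 14, against 6.20 and 7.48 FPKM in control liver (-1.52 ± 0.25, adjusted p = 0.0219, limma). Dio1 and Thrsp were higher and Gpd2 lower at day 14 than at day 2. Thrsp, a lipogenic protein also called Spot 14, had 551 and 972 FPKM at day 14, 13.4, 17.5, 134 and 6.86 FPKM at day 2, and 188 and 80.5 FPKM in control liver (day 14 against day 2 4.99 ± 1.00, adjusted p = 0.017, limma). The thyroid list's day 2 count of 5 dropped to 1 without either control library. The count of 2 at day 14 against control was 0 without either control library or day 14 replicate 1, 1 without day 14 replicate 2 and 4 without day 2 replicate 3. The count of 3 against day 2 was 1 without either day 14 library and 6 without day 2 replicate 3.

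Ppara encodes the fatty acid sensor that switches on fat oxidation and ketone production in fasting, and lies on chromosome 15 from 85734983 to 85802819 on the plus strand. It had 13.0 and 15.5 FPKM at day 14, 13.8, 18, 6.84 and 4.17 FPKM at day 2, and 26.1 and 28.9 FPKM in control liver. All 6 libraries of operated livers were below both control libraries, and the day 2 libraries differed among themselves, replicates 1 and 2 being above replicates 3 and 4. The log2 change was -0.91 ± 0.56 at day 14 against control (95% interval -2.19 to 0.37, adjusted p = 0.314) and 0.55 ± 0.48 against day 2 (adjusted p = 0.444), by limma. At day 2 against control it was -1.46 ± 0.48 (-2.57 to -0.35), short of the limma threshold at an adjusted p of 0.0635. It passed without day 2 replicate 2 (-1.76, adjusted p = 0.0243) and after quantile scaling (0.0489).

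The day 2 libraries were split in the same pairs by the summed level of 12 cycling cell markers, which was 14.3 and 16.2 FPKM at day 14, 4.67, 2.85, 688 and 936 FPKM at day 2, and 13.5 and 15.2 FPKM in control liver. Day 2 replicates 3 and 4, where Ppara was lowest, had the high sums, and their part in the Ppara level was not tested. Nr1i2, Nr1i3 and Thrb were also lower in day 2 replicates 3 and 4 than in replicates 1 and 2. Nr1h3, Nr3c1, Ppard, Pparg, Rxra and Rarb overlapped between these pairs. The libraries as a whole paired the same way, with Pearson's r of 0.959 between replicates 1 and 2 and 0.968 between replicates 3 and 4. Across the pairs r was 0.889 to 0.926. The share of all genes split in this way was not counted, so the split of these receptors cannot be read as particular to them.

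PPAR alpha targets, all 30 of which were tested, had 6 calls at day 2 against control, near the share of 21.2% of all genes tested. Of these calls, 5 were higher (Acot2, Acot3, Acadl, Cyp4a31 and Cyp4a14) and 1, Acsl1, lower, with a list median of 0.55. Over all genes, 9.72% were called higher and 11.5% lower. Cyp4a14, a fatty acid omega hydroxylase, had 220, 729, 35.5 and 279 FPKM at day 2, against 0.378 and 0.535 FPKM in control liver (7.11 ± 0.97, adjusted p = 0.00427, limma). Acot2, a mitochondrial acyl-CoA thioesterase, had 15.5, 7.50, 2.70 and 17.3 FPKM at day 2, against 0.388 and 0.325 FPKM in control liver (2.86 ± 0.60, adjusted p = 0.0153, limma). Acsl1, which activates long-chain fatty acids, had 274 and 208 FPKM at day 14, 36.1, 76.8, 65.2 and 41.5 FPKM at day 2, and 214 and 212 FPKM in control liver (day 2 against control -2.0 ± 0.34, adjusted p = 0.00835, limma).

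The PPAR alpha list ran the other way at day 14 against day 2, with 1 higher (Acsl1) and 6 lower (Acot2, Acot3, Hadha, Cyp4a31, Cyp4a14 and Cpt1b) and a median of -0.93. Over all genes tested, 9.09% were called higher and 7.03% lower there. Cpt1b reached 1 FPKM only in the day 2 libraries, so it passed the filter only through the group where it was high. Cyp4a14 stood at 1.20 and 2.65 FPKM at day 14 (-6.15 ± 0.97, adjusted p = 0.00856, limma) and Cyp4a31 at 1.34 and 0.431 FPKM, against 9.86 to 19.2 FPKM at day 2 (-3.0 ± 0.33, adjusted p = 0.0036, limma). Only Hadha, a subunit of the mitochondrial trifunctional protein, was called at day 14 against control, at 32.5 and 54.2 FPKM against 103 and 113 FPKM in control liver (-1.34 ± 0.32, adjusted p = 0.042, limma), and the list median was -0.04. The day 2 count of 6 was 0 without either control library and 11 without day 2 replicate 3. The count of 7 against day 2 was 0 without day 14 replicate 1, 3 without either control library or day 2 replicate 1, and 13 without day 2 replicate 3. The call of Hadha was lost without either control library, day 14 replicate 1, day 2 replicate 1 or day 2 replicate 4.

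Pparg encodes the receptor that drives fat storage, is high in adipocytes and macrophages and is low in normal hepatocytes; it lies on chromosome 6 from 115360951 to 115490399 on the plus strand. It had 4.60 and 8.10 FPKM at day 14, 1.76, 3.24, 2.39 and 2.85 FPKM at day 2, and 3.36 and 3.93 FPKM in control liver. Both day 14 libraries were above all others, and all 4 day 2 libraries were below both controls. Day 14 was higher than day 2 by 1.02 ± 0.27 on the log2 scale (95% interval 0.41 to 1.63), with an adjusted p of 0.038 by limma. Against control the log2 change was 0.62 ± 0.31 at day 14 (adjusted p = 0.217) and -0.40 ± 0.27 at day 2 (0.304), both by limma. Of the 8 fits that each left out 1 library, only that without day 2 replicate 2 kept the call (adjusted p = 0.0288), and the log2 change ranged from 0.67 to 1.37; it was also lost with no filter on low values (0.0785) and in a fit of only the day 14 and day 2 libraries (0.0766).

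The summed level of 10 Kupffer cell markers, the resident macrophages of liver, was 93.7 and 107 FPKM at day 14, 181 to 282 FPKM at day 2, and 183 and 218 FPKM in control liver. The markers did not move alike. At day 14 against day 2 limma called 5 lower and 0 higher, beside 7.03% of all genes called lower, and 5 were not called. Clec4f, at 34.8 and 31.1 FPKM at day 14, lay within its day 2 range of 14.1 to 46.7 FPKM. Slc40a1, at 18.2 and 21.2 FPKM, lay above its day 2 range of 1.74 to 15.6 FPKM. Of 8 adipocyte markers, Lep was at 0 in all libraries, and Adipoq, Plin1 and Retn reached at most 0.168, 0.152 and 0.098 FPKM, each in 1 day 2 library. Cfd had 0.254 and 5.03 FPKM at day 14, 0.508, 0.0925, 0.0761 and 0.0758 FPKM at day 2, and 1.55 and 0.145 FPKM in control liver, so it was highest in day 14 replicate 2, as was Pparg. Fabp4 and Cidec, also listed as PPAR gamma targets, were highest at day 2. The sum of the 8, 1494 and 1336 FPKM at day 14, 635 to 1823 FPKM at day 2, and 1049 and 1398 FPKM in control liver, was mostly Pck1, which hepatocytes also express. The part of these cell types in the Pparg level was not tested.

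PPAR gamma targets, of which 10 of 11 were tested, had 1 higher call (Fabp4) and 1 lower (Acsl1) at day 2 against control, a median of 1.02, and no limma call at day 14 against control (2 at an unadjusted p under 0.05), where the median was 0.18. In these comparisons 21.2% and 9.79% of all genes tested were called. Fabp4, a fatty acid binding protein of adipocytes and macrophages, had 9.27 and 11.3 FPKM at day 14, 71.5, 96.5, 13.8 and 49.5 FPKM at day 2, and 8.19 and 9.35 FPKM in control liver (day 2 against control 2.30 ± 0.65, adjusted p = 0.0409, limma). Where Pparg was higher, at day 14 against day 2, Acsl1 was higher (2.16 ± 0.34, adjusted p = 0.00822) and Cd36, a fatty acid transporter, lower (-1.23 ± 0.35, adjusted p = 0.0484), both by limma, and the list median was -1.13. Cidec, a lipid droplet protein, had 0.528 and 1.43 FPKM at day 14, 142, 154, 1.64 and 21.0 FPKM at day 2, and 0.535 and 0.298 FPKM in control liver. Day 2 replicates 1 and 2 were thus far above replicate 3. G0s2, also on this list, was highest at day 14, as Pparg was. It had 484 and 248 FPKM at day 14, 163, 84.3, 6.31 and 47.1 FPKM at day 2, and 15.7 and 29.9 FPKM in control liver. At day 14 against day 2 neither Cidec (-4.13 ± 1.47, adjusted p = 0.0882) nor G0s2 (2.88 ± 1.06, 0.0974) was called by limma, so listed genes went both ways there. The counts of 2 at day 2 and at day 14 against day 2 became 5 and 4 without day 2 replicate 3. At day 2 the count was 0 without either control library and 1 without either day 14 library, day 2 replicate 1 or day 2 replicate 4. The other count was 0 without day 14 replicate 1 and 1 without either control library, day 2 replicate 1 or day 2 replicate 4. The Fabp4 call was kept only without day 2 replicate 3, and the Cd36 call only without that library or day 14 replicate 2.

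Ppard encodes the broadly expressed member of the PPAR group and lies on chromosome 17 from 28232700 to 28301474 on the plus strand. It had 6.29 and 3.04 FPKM at day 14, 2.41, 2.69, 2.43 and 2.26 FPKM at day 2, and 3.35 and 5.37 FPKM in control liver. The 4 day 2 libraries were close to each other and below all others, whereas the day 14 libraries spread around the controls. No comparison was called (log2 changes of 0.04 ± 0.32 at day 14 against control, 0.65 ± 0.28 at day 14 against day 2 and -0.61 ± 0.28 at day 2 against control, adjusted p of 0.949, 0.136 and 0.146 by limma).

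Nr1h3 encodes LXR alpha, the oxysterol sensor, and lies on chromosome 2 from 91184061 to 91202834 on the minus strand. It had 44.2 and 51.7 FPKM at day 14, 58.6, 33.5, 70.1 and 57.5 FPKM at day 2, and 46.8 and 48.9 FPKM in control liver. The groups overlapped in all 3 comparisons, with means of 48.0 ± 5.32 FPKM at day 14, 55.0 ± 15.4 FPKM at day 2 and 47.9 ± 1.46 FPKM in control liver (SD, n = 2, 4 and 2). Its adjusted p was 1 at day 14 against control, 0.753 against day 2 and 0.744 at day 2 against control by limma.

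Among LXR targets, all 14 of which were tested, none was called higher against control at either time. At day 2, 3 were lower (Mid1ip1, Cyp7a1 and Mylip), with a median of -0.57, and at day 14, 2 were lower (Smpdl3a and Mylip), with a median of 0.03. Over all genes tested, 11.5% and 4.58% were called lower in these comparisons. Cyp7a1, which makes the first and limiting step from cholesterol to bile acids, had 33.2 and 46.7 FPKM at day 14, 0, 0.0173, 2.42 and 0.744 FPKM at day 2, and 10.8 and 28.7 FPKM in control liver. Its log2 change was -3.57 ± 0.56 at day 2 against control (adjusted p = 0.00642) and 4.68 ± 0.56 at day 14 against day 2 (adjusted p = 0.00405), by limma. Mid1ip1, a regulator of fat synthesis, had 45.2 and 39.3 FPKM at day 14, 5.07, 4.39, 14.4 and 9.14 FPKM at day 2, and 36.2 and 23.9 FPKM in control liver (day 2 against control -1.85 ± 0.43, adjusted p = 0.0212; day 14 against day 2 2.35 ± 0.43, adjusted p = 0.013, limma).

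Mid1ip1, Srebf1 and Cyp7a1 were higher and no LXR target lower at day 14 than at day 2, with a median of 0.37. Srebf1, the lipogenic transcription factor, had 146 and 143 FPKM at day 14, 21.2, 55.5, 59.1 and 26.0 FPKM at day 2, and 57.6 and 43.7 FPKM in control liver (day 14 against day 2 1.94 ± 0.43, adjusted p = 0.023, limma). Smpdl3a, a phosphodiesterase, had 2.59 and 6.50 FPKM at day 14, against 17.2 and 14.2 FPKM in control liver (-1.68 ± 0.37, adjusted p = 0.0356, limma), and Mylip, a ubiquitin ligase that degrades the LDL receptor, had 0.890 and 1.42 FPKM, against 3.87 and 3.88 FPKM (-1.19 ± 0.30, adjusted p = 0.0457, limma). The count of 3 against day 2 was 0 without day 14 replicate 1. The day 2 count of 3 was 1 without control replicate 1, 0 without control replicate 2 and 5 without day 2 replicate 2. The count of 2 at day 14 against control was 0 without either control library, day 14 replicate 1 or day 2 replicate 1, and 1 without day 14 replicate 2 or day 2 replicate 3.

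Rxra encodes the shared partner of most of these receptors and lies on chromosome 2 from 27676440 to 27762957 on the plus strand. It had 53.1 and 66.5 FPKM at day 14, 62.5, 69.4, 78.5 and 49.3 FPKM at day 2, and 82.7 and 104 FPKM in control liver. All 6 libraries of operated livers were below both control libraries, and days 14 and 2 overlapped. No comparison was called (-0.63 ± 0.29 at day 14 against control, -0.11 ± 0.26 at day 14 against day 2 and -0.53 ± 0.26 at day 2 against control, adjusted p of 0.192, 0.793 and 0.17 by limma). The other retinoid X receptors, Rxrb and Rxrg, averaged 14.6 and 2.15 FPKM over the 8 libraries, against 70.7 FPKM for Rxra, and were not called either (adjusted p of 0.444 to 0.952 by limma).

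Rarb encodes retinoic acid receptor beta and lies on chromosome 14 from 16430839 to 16819156 on the minus strand. It was the lowest of the 10, at 0.779 and 1.26 FPKM at day 14, 2.08, 1.57, 1.76 and 1.49 FPKM at day 2, and 1.66 and 0.842 FPKM in control liver. Both day 14 libraries were below all 4 day 2 libraries, while the controls overlapped both. No comparison was called (-0.14 ± 0.27 at day 14 against control, -0.44 ± 0.23 at day 14 against day 2 and 0.30 ± 0.23 at day 2 against control, adjusted p of 0.77, 0.219 and 0.378 by limma). Exons of Top2b on the plus strand overlap 34.06% of the 5265 exonic bases of Rarb, and reads there cannot be told apart without strand. Top2b, a DNA topoisomerase, had 7.81 and 5.75 FPKM at day 14, 3.12, 4.74, 3.02 and 2.85 FPKM at day 2, and 9.11 and 9.32 FPKM in control liver, above Rarb in every library.

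Of 15 genes of retinoid targets and handling, 10 were tested. Tgm2 was higher and Dhrs3 lower at day 2 against control, with a median of -0.19, and at day 14 against day 2 these genes were called in the opposite directions, with a median of 0.10. The shares called of all genes tested were 21.2% and 16.1% in these comparisons. Tgm2, a transglutaminase induced by retinoic acid, had 18.6 and 18.7 FPKM at day 14, 91.8, 198, 107 and 99.6 FPKM at day 2, and 32.4 and 39.1 FPKM in control liver (day 2 against control 1.70 ± 0.32, adjusted p = 0.0117; day 14 against day 2 -2.60 ± 0.32, adjusted p = 0.0046, limma). Dhrs3, a reductase that turns retinal back to retinol and is also induced by retinoic acid, had 90.0 and 78.4 FPKM at day 14, 21.5, 25.4, 40.8 and 40.8 FPKM at day 2, and 112 FPKM in both control libraries (-1.82 ± 0.31, adjusted p = 0.00811; 1.41 ± 0.31, adjusted p = 0.0212, limma, for the same comparisons). None was called by limma at day 14 against control (2 at an unadjusted p under 0.05), and the median was -0.38. Rbp4, the retinol carrier of plasma and the most abundant of them, had 1781 and 3582 FPKM at day 14, against 3033 and 3050 FPKM in control liver (-0.27 ± 0.43, adjusted p = 0.727, limma). The retinoid list's day 2 count of 2 was 0 without either control library and 4 without either day 14 library. The count of 2 at day 14 against day 2 was 0 without day 14 replicate 1 and 1 without day 14 replicate 2, and the count of 0 at day 14 against control was 1 without day 2 replicate 1 and 2 without day 2 replicate 2.

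**Figure D3:**
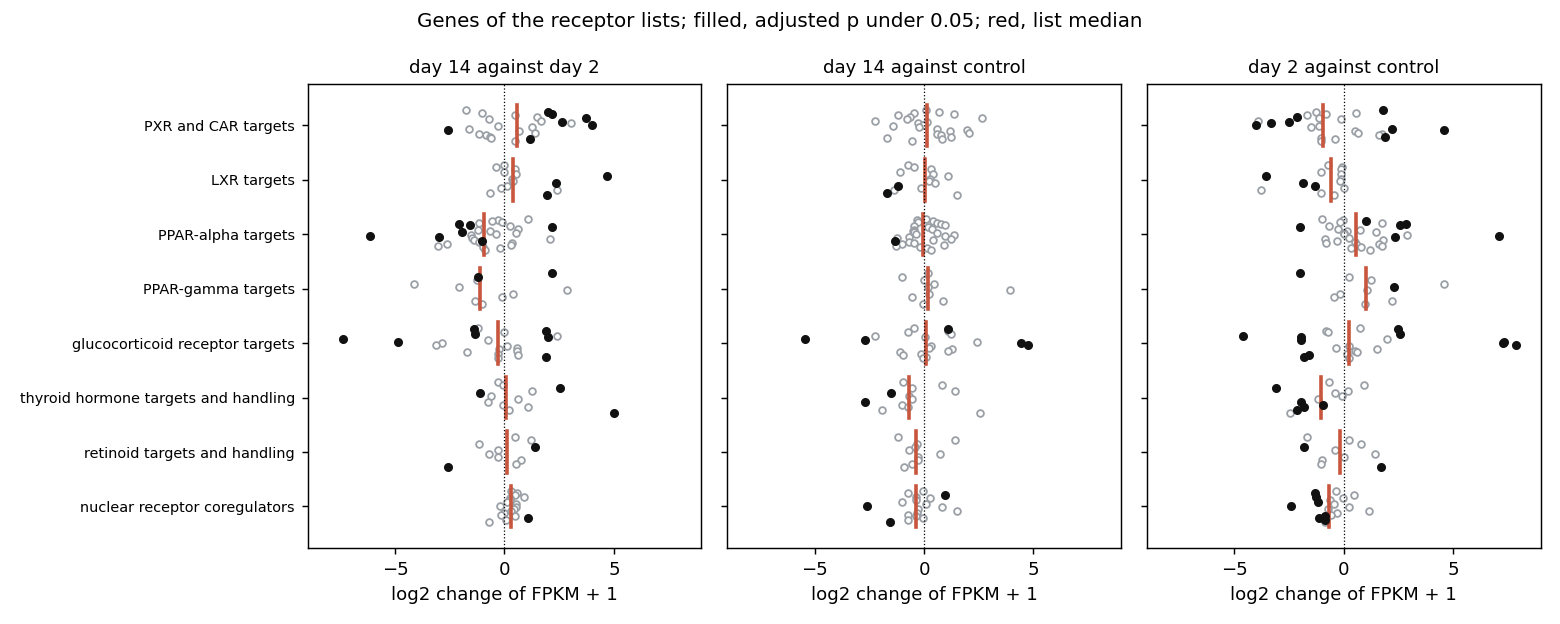
Log2 change in log2(FPKM + 1) of every tested gene of 8 lists (grey points; filled where the adjusted p was under 0.05 by limma) with the list median (red), in day 14 against day 2, day 14 against control and day 2 against control. The PPAR alpha targets have a median of 0.55 at day 2 against control and -0.93 at day 14 against day 2, and the thyroid list a median of -1.06 at day 2 against control.

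Among the 35 nuclear receptors that passed the filter for testing, the 10 described here ranked between first (Nr1i3, with a mean of 121 FPKM over the 8 libraries) and 32nd (Rarb, 1.43 FPKM). Of 39 other nuclear receptors listed, 25 were tested. Relative to day 2, 5 were higher and none lower at day 14, among them Nr1h4, Nr1h5 and Nr6a1, with a list median of 0.43, close to the median of 0.44 of the 10 receptors. Over all genes tested, 9.09% were called higher and 7.03% lower there. Nr1h4, the bile acid sensor FXR, had 170 and 111 FPKM at day 14, 20.5, 11.5, 40.1 and 23.5 FPKM at day 2, and 47.2 and 56.7 FPKM in control liver (day 14 against day 2 2.60 ± 0.44, adjusted p = 0.0102, limma).

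Among the other receptors, 4 were lower and none higher at day 2 against control (Nr2c1, Nr2c2, Nr5a2 and Rora), with a median of -0.42. Over all genes tested, 11.5% were called lower and 9.72% higher in that comparison. Nr2c2, an orphan receptor, had 0.569 to 0.919 FPKM at day 2, against 3.04 and 3.84 FPKM in control liver (-1.39 ± 0.20, adjusted p = 0.00536, limma), and Nr5a2, a regulator of bile acid synthesis genes, had 5.05 to 9.97 FPKM, against 15.3 and 18.7 FPKM (-1.17 ± 0.27, adjusted p = 0.0213, limma). Relative to control, Esrra and Rara were higher at day 14 and Nr2c2 and Nr5a2 lower, with a median of 0.04. Esrra, a regulator of mitochondrial genes, had 50 and 31.8 FPKM at day 14, 28, 16.2, 14.6 and 13.6 FPKM at day 2, and 12.4 and 8.60 FPKM in control liver (1.85 ± 0.39 against control, adjusted p = 0.0329, limma). Nr2c2 at day 14, at 0.789 and 0.546 FPKM, was lower by -1.41 ± 0.23 on the log2 scale (adjusted p = 0.0221, limma). Of the other receptors, the day 2 count of 4 was 0 without either control library, 2 without day 2 replicate 4 and 7 without day 2 replicate 2. The count of 4 at day 14 against control was 0 without either control library or day 14 replicate 1, 1 without day 14 replicate 2, 2 without day 2 replicate 1 and 7 without day 2 replicate 2. The count of 5 against day 2 was 0 without day 14 replicate 1, 1 without day 14 replicate 2, 2 without either control library and 3 without day 2 replicate 1 or 3.

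**Figure D4:**
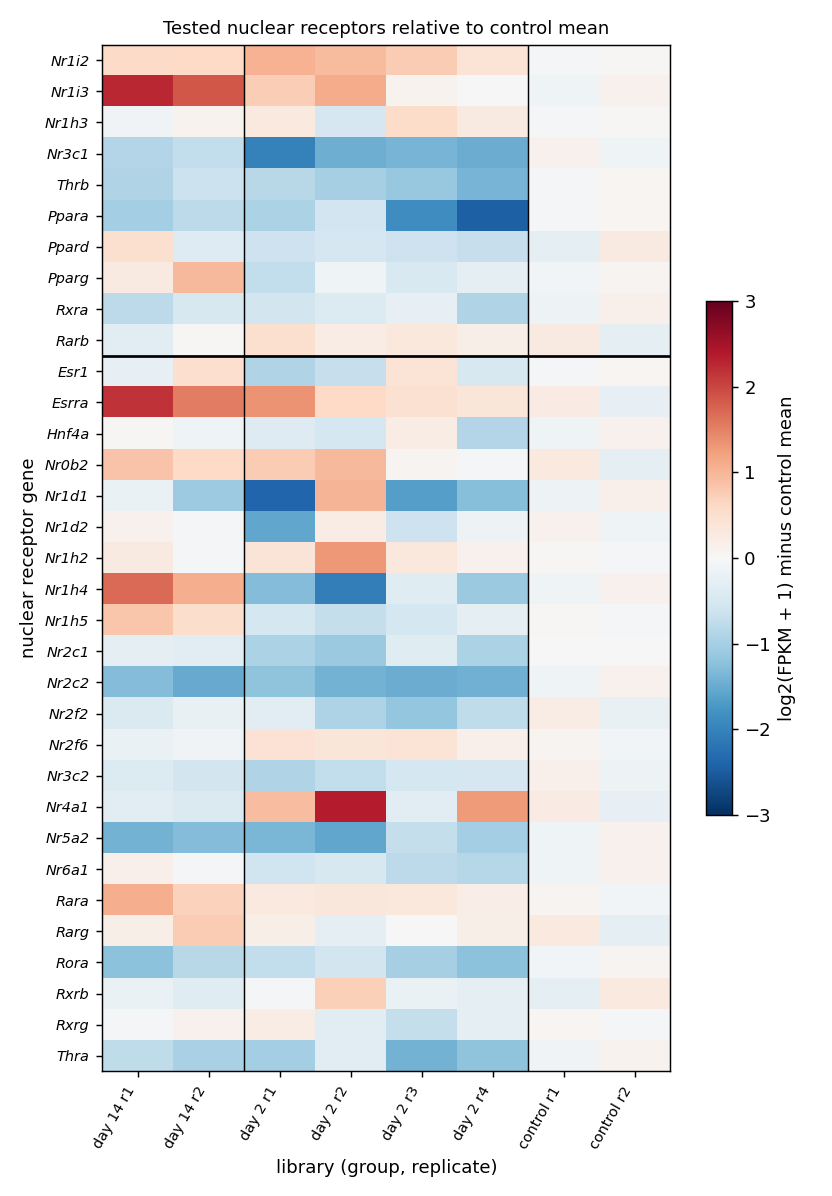
Log2(FPKM + 1) of 33 of the 35 nuclear receptors tested in each library minus the control mean, with columns for day 14 (2 libraries), day 2 (4) and control (2); the black line divides the 10 receptors described (above) from 23 others. Nr1i3 and Esrra are the most raised at day 14, by 2.06 and 1.85 on the mean. Of the 10, Nr3c1, Ppara, Rxra and Thrb are below the control mean in all 6 libraries of operated livers. So are Nr2c1, Nr2c2, Nr2f2, Nr3c2, Nr5a2, Rora and Thra among the others.

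Coregulators, the proteins that receptors recruit to open or close chromatin, were all 18 tested. Relative to control, 7 were lower at day 2 and none higher (Ncoa2, Ncoa4, Prox1, Lpin1, Tbl1x, Ppargc1b and Ep300), with a median of -0.66. Over all genes tested, 11.5% were called lower and 9.72% higher in that comparison. Ppargc1b reached 1 FPKM only in the control libraries. It passed the filter only through the group where it was high, so its call adds no support to the count. Ep300, a histone acetyltransferase, had 2.13, 2.14, 1.95 and 2.25 FPKM at day 2, against 6.18 and 7.50 FPKM in control liver (-1.33 ± 0.18, adjusted p = 0.00424, limma). Ncoa4, named as a coactivator and also the receptor for ferritin breakdown, had 6.27 and 6.69 FPKM at day 14, 7.18, 3.56, 16 and 7.58 FPKM at day 2, and 35.9 and 55.8 FPKM in control liver (-2.61 ± 0.53 at day 14, adjusted p = 0.032, and -2.41 ± 0.46 at day 2, adjusted p = 0.0116, against control, limma). Hdac3 was higher and Tbl1xr1 and Ncoa4 lower at day 14 against control, with a median of -0.34; at day 14 against day 2 only Prox1 was called, higher by 1.09 ± 0.31 (adjusted p = 0.0496, limma), with a median of 0.32. The day 2 count of 7 was 0 without either control library and 4 without either day 14 library, day 2 replicate 1 or day 2 replicate 4, and was 3 once a trend with transcript length and GC content was removed. The count of 3 at day 14 against control was 0 without either control library, day 14 replicate 1 or day 2 replicate 1, 1 without day 14 replicate 2 and 8 without day 2 replicate 2. The Prox1 call was kept only without day 2 replicate 3.

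Of 46 calls of genes that the naming rule took from these lists, 6 were kept in every fit that left out 1 library and tested the gene, all but 1 of them at day 2 against control. They were Dio1 in both its comparisons and Gsta1, Lcn2, Mt2 and Nr2c2 at day 2. Nr2c2 was tested in 6 of the 8 fits. The calls against control rest on 2 control libraries, and those of day 14 on 2 libraries of that day.

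The genes whose levels ran most like each receptor over the 8 libraries were found among 6941 named genes with a mean of at least 5 FPKM, by Pearson's r of log2(FPKM + 1), given as a description. Nr1i3 was most like Jtb (r = 0.982) and Igf1 (0.980), and Nr1i2 most like Pld3 (0.991) and Efhd2 (0.971). Nr3c1 was most like Aadat (0.988) and Aldh6a1 (0.985), both amino acid breakdown enzymes, and Thrb most like Insr (0.974), the insulin receptor, and Mup-ps17 (0.972). Ppara was most like Tmem106b (0.984) and Mug1 (0.981), Pparg like Nat8 and Tmem59 (0.961 each), and Ppard like Capn7 (0.931) and Phf21a (0.923). Nr1h3 was most like Mpp1 (0.979), Rxra like Nipa2 (0.971) and Ell2 (0.961), and Rarb like Rala (0.940) and Nudt2 (0.917). All these values rest on the same 8 libraries and on differences between 3 groups.

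Facts of the libraries bear on all these values. Total FPKM ran from 686332 to 1298005, and 10796 to 11197 genes reached 1 FPKM; read numbers are unknown, and relative depth, estimated from the steps between low values, ran from 0.64 (day 14 replicate 1) to 1.14 (day 2 replicate 4) of control replicate 1. The hepatocyte marker Alb was at 14930 to 39857 FPKM in all libraries. Relative to control, operated livers had shorter and GC-rich transcripts higher: the shortest minus the longest eighth of genes differed by 0.79 to 1.00 (log2) at day 2 and by 0.61 and 0.89 at day 14, and the lowest minus the highest eighth by GC content by -0.82 to -0.63 and by -0.57 and -0.53 (medians over genes). With that trend removed the 5 receptors called kept their calls, at 2.04 (Nr1i3, day 14 against control, adjusted p = 0.0399), 1.00 (Pparg, day 14 against day 2, 0.031), 0.82 (Nr1i2, day 2 against control, 0.0441), -1.44 (Nr3c1, 0.0086) and -0.96 (Thrb, 0.0279) by limma. Neutrophil marker sums were 16.2 and 71.5 FPKM at day 14, 32.5 to 330 FPKM at day 2, and 4.41 and 8.27 FPKM in control liver, and 10 hepatocyte markers summed to 66693 and 70076, 42718 to 70771, and 52524 and 55977 FPKM in the same groups. The hepatocyte sum was mostly Alb and Apoa1, and its members went both ways. Mean FPKM at day 14 against control was 20393 against 8261 for Apoa1, 24949 against 30983 for Alb and 261 against 777 for Cps1. The part of other cell types in the receptors' levels was not tested.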

How the data were processed

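Liver mRNA of 8 libraries was measured by sequencing on an Illumina instrument. The authors deposited 1 table of FPKM values with 1 column per library, per the file headers; total FPKM per library is given above. Tools named in the submitters' processing notes are Cufflinks 2.2.1, HISAT2 2.10, DESeq2 and HTSeq, and the genome builds named there are mm9 and GRCm38; neither list states a role or an order. Which of them made the table, and whether strand was used, is not given in the sources used here. No column of per-sample values was left out, and 27 gene symbols written as dates were set right by their identifiers.

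The labels gave the groups day 14 (2 libraries), day 2 (4) and control (2). Of 47719 genes, the 12340 that reached 1 FPKM in 2 or more libraries entered, as log2(FPKM + 1), 1 limma fit (limma 3.58.1, R 4.3.3) of 3 group means with the variance trended on the mean (5 residual degrees of freedom, 3.23 prior ones), and p-values were adjusted by Benjamini-Hochberg within each of 3 comparisons. The fit was tested on simulated data. Python 3.11.15 and its library matplotlib 3.10.9 drew the figures. The receptors, gene lists and rules were chosen with earlier results of these data known. All 10 receptors were named; from every other list, the 2 called genes with the largest log2 change in each comparison or the gene of highest mean level if no gene was called. Cyp2b10, Cyp3a11, Fkbp5, Slc16a10, Tsc22d3, Hsd11b1, Srebf1, Cidec, G0s2, Tomm40l and Top2b were added after their values were seen, as were the genes listed without values in the sentences on calls. The markers Clec4f, Slc40a1, Apoa1 and Cps1 were also added after their values were seen. A few genes that the rule took are not reported here, though they stay in the counts. Coordinates and lengths come from GENCODE M21 on GRCm38. Alternatives were another pseudocount (0.1), a minimum of 5 FPKM or none, scaling by quantiles or by median ratios, no trend, only the 2 groups compared, removal of a length and GC trend, and each library left out. FPKM without counts gives no counting interval.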

Additional observations from a re-analysis of the deposited data

Results flagged for a closer look

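Nr1i3 and Pparg stood out because their change from control liver differed between day 14 and day 2, by the limma test of day 14 against day 2 itself. For Nr1i3, day 14 was higher than day 2 by 1.57 on the log2 scale, with 285 and 216 FPKM at day 14 against 58.2 to 129 FPKM at day 2. For Pparg, day 14 was higher than day 2 by 1.02 on the log2 scale, with 4.60 and 8.10 FPKM at day 14 against 1.76 to 3.24 FPKM at day 2. Both libraries of day 14 were above all 4 of day 2 for each gene. Among the day 2 libraries, Nr3c1 in replicate 1, at 3.33 FPKM against 5.29 to 5.73 FPKM in the other 3, lay apart by Dixon's criterion on the log2(FPKM + 1) scale, where the gap to its neighbour was 0.849 of the whole range; on FPKM the gap was 0.819 of the range, short of the 95% critical value. That library is the one whose title reads d1. Without it Nr3c1 at day 2 against control was -1.45 (adjusted p = 0.0114, limma). No other receptor had a day 2 library apart on either scale. Chance marks about 1 in 20 groups by this criterion, and the groups of 2 libraries were not tested.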

How the results depend on the processing

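The 2 control and 2 day 14 libraries limit these results most. With each library left out in turn, the receptors called numbered 0 to 1 at day 14 against control, 0 to 2 at day 14 against day 2 and 0 to 3 at day 2 against control, and all genes called 0 to 2097, 17 to 2472 and 92 to 2971 in the same comparisons. No paired analysis was possible because the groups share fewer than 2 numbers in their labels. Fitting only the 2 groups compared called 4 receptors (Nr1i3 and, not called in the main fit, Nr3c1, Ppara and Thrb) and 2664 genes at day 14 against control, and 0 receptors and 982 genes at day 14 against day 2. With no filter on low values, 1 receptor was called at day 14 against day 2, and 691 genes at day 14 against control. With the length and GC trend removed, 1719 genes were called at day 2 and 543 at day 14, both against control. Pparg and Rarb could not be tested at a minimum of 5 FPKM. The cause of these shifts was not tested.

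Directions changed only for results that were not called. Nr1h3 at day 2 against control was -0.01 with quantile scaling and -0.19 with the length and GC trend removed, and at day 14 against control ran from -0.11 to 0.11 over the libraries left out, with 0.11 without day 14 replicate 1 and 0.03 without control replicate 2. Ppard at day 14 against control was -0.20 with the length and GC trend removed, and -0.38 without day 14 replicate 1 and -0.23 without control replicate 1, in a range of -0.38 to 0.47. Rarb in that comparison ranged from -0.41 to 0.12, Rxra at day 14 against day 2 from -0.26 to 0.05, and at day 14 against control Acsl1 was -0.07 with quantile scaling and ran from -0.04 to 0.36, and Rbp4 from -0.77 to 0.24, over the libraries left out. Nr3c1 at day 14 against day 2 gained a limma call with median-ratio scaling (adjusted p = 0.0487), quantile scaling (0.0469), the filter at 5 FPKM (0.0475) or the length and GC trend removed (0.043).

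Counts over the target lists moved too. With only the 2 groups compared, the calls at day 14 against control were 7 for PXR and CAR targets, 4 for LXR and for PPAR alpha targets, 2 for PPAR gamma targets and for the retinoid list, 8 for glucocorticoid receptor targets and for other nuclear receptors, and 7 for coregulators and for the thyroid list. In the same setting they were 3, 1, 0 and 2 at day 14 against day 2 for PPAR alpha targets, PPAR gamma targets, coregulators and other nuclear receptors, and 1, 4, 2 and 4 at day 2 against control for PPAR gamma targets, coregulators, other nuclear receptors and the retinoid list. With no filter they were 0 (LXR, PPAR alpha), 3 (glucocorticoid), 1 (coregulators) and 2 (other receptors) at day 14 against control, 3, 1, 4, 0 and 3 (PPAR alpha, PPAR gamma, glucocorticoid, coregulators, other receptors) at day 14 against day 2, and 5, 1 and 3 (PXR and CAR, PPAR gamma, coregulators) at day 2. With the length and GC trend removed they were 1 (LXR), 0 (PPAR alpha), 3 (glucocorticoid) and 1 (other receptors) at day 14 against control. At a minimum of 5 FPKM, other receptors had 3 calls at day 14 against day 2 and 2 at day 2, PPAR gamma targets 4 at day 2, and at day 14 against control LXR targets 1 and PXR and CAR targets 1. The retinoid list had 4 and 5 calls at day 2 with median-ratio and quantile scaling, PPAR gamma targets 1 at day 14 against day 2 with quantile scaling, LXR targets 1 at day 14 against control with a pseudocount of 0.1, and coregulators 0 at day 14 against day 2 with no trend.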

Other observations

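Some nuclear receptors outside the 10 differed more between the 4 day 2 libraries than between groups, and were chosen after their values were seen. Nr1d1, a clock repressor also called REV-ERB alpha, had 14.4 and 7.22 FPKM at day 14, 2.38, 34.6, 4.63 and 6.29 FPKM at day 2, and 14.8 and 18.8 FPKM in control liver. Nr4a1, an immediate early gene, had 0.866 and 0.760 FPKM at day 14, 3.46, 11, 0.883 and 4.72 FPKM at day 2, and 1.8 and 0.992 FPKM in control liver. Both were highest in day 2 replicate 2, and neither was called by limma in any comparison (adjusted p of 0.139 to 0.769). Hnf4a, the hepatocyte receptor ranked next to Nr1i3 in mean level (118 FPKM), was not called either, with log2 changes of -0.05 ± 0.36 at day 14 against control, 0.34 ± 0.31 at day 14 against day 2 and -0.39 ± 0.31 at day 2 against control.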
